A study of Mus musculus with 6 samples.

Results

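The megakaryocyte and platelet lineage genes described here are 9 genes, Pf4, Itga2b, Vwf, Gp9, Gp1bb, Selp, Itgb3, Cd9 and F2r, taken by their symbols. All 9 had a row among the 21878 gene rows of each library, and 8 of the 9 had enough signal to be tested, of 10449 genes tested in all. They were measured by RNA-seq in hematopoietic stem cells (HSCs) sorted from the bone marrow of wild-type mice, which the methods of the study describe as C57BL/6 animals; no age was given for these libraries. HSCs were gated as CD34-Flk2-Lineage-Sca1+c-Kit+ cells, where Flk2 is the receptor encoded by Flt3. In the IGF1 group, 3 libraries came from mice given recombinant mouse IGF1 under the skin and sorted on the following day. The 3 control libraries are labelled as controls, which the study describes as vehicle-treated mice, so by their labels the groups share genotype and sort and differ in IGF1. The labels conflict: the treatment field names IGF-1, whereas the extraction text speaks of irradiated mice, and the treatment field was used. The labels do not state whether the libraries of a group came from separate mice or from pools, so each p-value measures only the spread between these libraries.

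Megakaryocytes are the large polyploid bone marrow cells that shed platelets. They build the receptors by which platelets stick to a damaged vessel, the agonist receptors that switch platelets on and the granules that platelets release, and much of this program is under the control of GATA1 with its partner FOG1 (Zfpm1), FLI1, RUNX1 and NF-E2. HSCs also express several of these genes, since a share of HSCs is primed toward the megakaryocyte lineage, and CD41 (Itga2b), CD9 and von Willebrand factor have been used to mark such cells. The comparison asked how these genes stood in HSCs after IGF1 relative to vehicle. Levels are given as FPKM, a count of fragments corrected for gene length and library depth, so that genes can be set side by side per length. Values of a group are listed in the order of its replicates. Log2 fold changes set IGF1 against control and were taken from log2(FPKM + 1), a scale on which low genes seem to change less than they do. Calls required more than 2-fold and an adjusted p under 0.05 from limma (Benjamini-Hochberg, all genes tested), and the words rose and fell are used for called genes only.

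Between 11205233 and 15972802 reads per library were recovered from the steps of the deposited values. The 3 control libraries were not alike. Genes with 20 reads or more summed over a pair of libraries were compared by their share of the recovered reads. This share differed over 2-fold between control replicates 1 and 3 in 117 genes, and between pairs of IGF1 libraries in 125 to 134. For control replicate 2 the number was 4147 and 4150 against the other controls and 822 to 900 against IGF1 libraries. Its label was taken as given, and whether it is right cannot be settled from the labels, so every fold change here depends on it. The results for the 9 genes are therefore given with and without control replicate 2. Without it, standard errors and p-values rest on libraries that differed little beyond counting error. The chi-squared per gene, near 1 for counting error alone, was 1.52 between control replicates 1 and 3 and 1.69 to 1.89 between IGF1 libraries. Over all genes tested, 207 were called higher and 484 lower, with a median log2 fold change of -0.18. After scaling to the 75th percentile 300 were higher and 259 lower with a median of 0.04, and after quantile normalization 304 were higher and 319 lower with a median of -0.02.

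The sort genes did not all follow the gate. Cd34, whose protein the gate selects against, had 640 and 634 FPKM in control replicates 1 and 3, 265 in control replicate 2 and 230 to 238 in the IGF1 libraries. Flt3 had 117 to 188 FPKM over the 6 libraries. Mpo, the myeloperoxidase gene of myeloid progenitors, had 1613 to 1705 FPKM, more than Ly6a, the Sca1 gene, with 219 to 615 FPKM. For Cd34, Flt3 and Kit control replicate 2 lay nearer to the IGF1 libraries than to the other controls. The part of these differences in the results below was not tested.

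Of the 8 genes tested, 1, Gp1bb, was called higher in HSCs of IGF1-treated mice, where 1.98% of all genes tested were called higher, and 0 were called lower, where 4.63% of all genes tested were. With the 2-fold threshold and an unadjusted p under 0.05, limma gave 2 higher and 2 lower. For counts at an unadjusted p, here and below, the share of all genes was not counted, so they cannot be set against it. At the thresholds of the calls, limma voom on the recovered reads called 2 higher and 0 lower, against 3.66% and 6.51% of all genes tested. The 3 IGF1 values lay above all 3 control values for Pf4, Gp9 and Gp1bb, 3 of 8 against 21.9% of all genes tested. They lay below all 3 control values for Selp, Cd9 and F2r, 3 of 8 against 37.4% of all genes tested. For each of these 6 genes the exact permutation test, 2-sided, gave p = 0.1, the smallest that 20 splits of 3 against 3 libraries allow. The median log2 fold change of the 8 genes was -0.23, against -0.18 over all genes tested. It was -0.03 after scaling to the 75th percentile and -0.10 after quantile normalization. Without control replicate 2, 3 of the 8 were called higher (Pf4, Gp9 and Gp1bb), against 12.3% of all genes tested, and 2 were called lower (Selp and F2r), against 20.6% of all genes tested. In 6 of the 8 genes, and in 8073 of all 10449, control replicate 2 lay nearer to the mean of the IGF1 libraries than to that of the other controls.

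**Figure D1:**
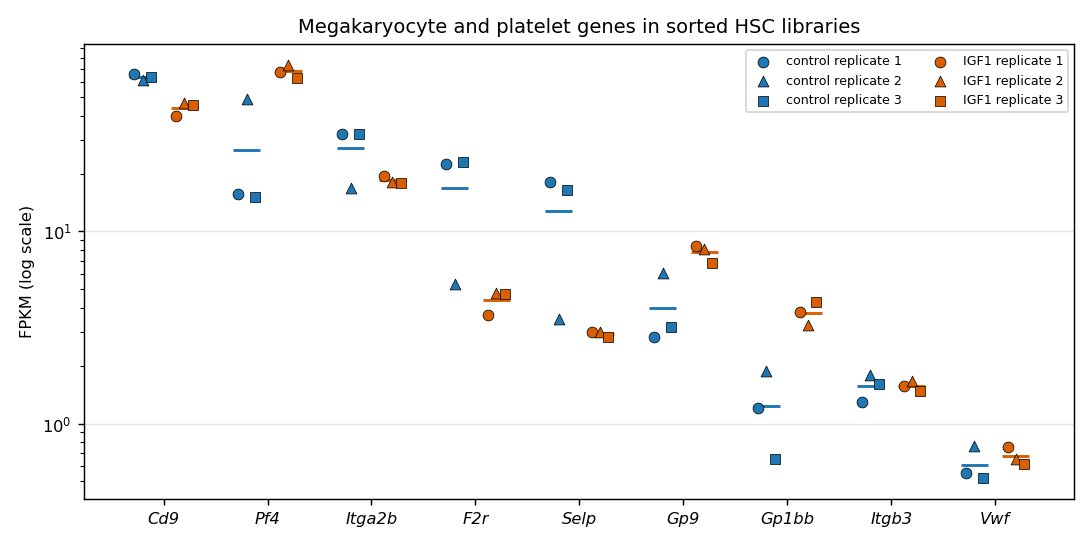
FPKM on a log scale (y axis) of the 9 genes (x axis, by mean level) in the 3 control libraries (blue) and the 3 IGF1 libraries (orange), with the marker shape giving the replicate and the bar the group mean. Control replicate 2 (blue triangle) sits apart from the other controls for Pf4, Itga2b, F2r, Selp and Gp9, and with them for Cd9.

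In control libraries the order of mean levels per length was Cd9, Itga2b, Pf4, F2r, Selp, Gp9, Itgb3, Gp1bb and Vwf, from 63.8 FPKM for Cd9 to 0.611 FPKM for Vwf. Cd9 stood above Itga2b, and Gp9 above Itgb3, in every control library and without overlap. The ranges of the other neighbours overlapped, although F2r was above Selp and Gp1bb above Vwf within every library. In IGF1 libraries the order was Pf4, Cd9, Itga2b, Gp9, F2r, Gp1bb, Selp, Itgb3 and Vwf, from 68.0 FPKM for Pf4 to 0.674 FPKM for Vwf. All neighbours in that order were separated in the 3 IGF1 libraries except F2r and Gp1bb.

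Promoter sequence is shown for Pf4 and Gp9, higher in all 3 IGF1 libraries than in any control, and for Selp, lower in all 3, because the factors named above act on such sequence. A RefSeq start site was at hand for 7 of the 9 genes (build GRCm38.p6), and none was given for Vwf and Itgb3. The 250 bases before the start were searched on both strands. AGGAAG or CGGAAG was taken as the core of ETS factors such as FLI1, and TGTGGT or TGCGGT as that of RUNX factors. The core of GATA factors was spelled AGATAA or with a different first base TGATAA. With a different last base it was AGATAG, and with both of these changes TGATAG. In the lines that follow, each 5′ to 3′ on the strand of the gene, capitals mark these words, which read as their reverse complement where the word lies on the opposite strand. The windows are chr5:90772185-90772434 on the + strand for Pf4, chr6:87777820-87778069 on the + strand for Gp9 and chr1:164115014-164115263 on the + strand for Selp.
Pf4: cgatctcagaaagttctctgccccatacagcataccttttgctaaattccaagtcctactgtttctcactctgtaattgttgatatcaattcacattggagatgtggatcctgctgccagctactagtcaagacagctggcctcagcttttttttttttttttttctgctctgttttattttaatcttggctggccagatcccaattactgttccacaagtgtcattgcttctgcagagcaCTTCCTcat
Gp9: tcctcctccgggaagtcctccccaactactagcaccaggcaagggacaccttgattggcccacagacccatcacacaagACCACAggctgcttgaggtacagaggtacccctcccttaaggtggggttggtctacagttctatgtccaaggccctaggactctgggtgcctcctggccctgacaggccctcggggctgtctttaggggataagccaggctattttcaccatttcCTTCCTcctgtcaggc
Selp: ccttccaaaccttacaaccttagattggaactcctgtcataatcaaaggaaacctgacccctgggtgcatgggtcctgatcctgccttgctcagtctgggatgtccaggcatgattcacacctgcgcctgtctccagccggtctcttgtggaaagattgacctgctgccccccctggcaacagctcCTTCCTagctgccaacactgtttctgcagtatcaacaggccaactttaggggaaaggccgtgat
The ETS word of Pf4 began 9 bases, that of Gp9 16 bases and that of Selp 64 bases before the start, so the genes that stood higher and the gene that stood lower shared it. An ETS word was found in 6 of the 7 windows, in all but that of F2r, and in 39.2% of 32851 promoter windows of the same length. RUNX words were found in Gp9 (171 bases before the start) and in F2r (178 and 130 bases), against 18.6% of all windows. A GATA word was found in Gp1bb (22 bases before the start), against 26.5% of all windows.

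Pf4 encodes platelet factor 4 (CXCL4), a chemokine that megakaryocytes store in α-granules (chr5:90772435-90773383, + strand). It had 15.6, 48.6 and 15.1 FPKM across control replicates 1 to 3, against 67.2, 73.7 and 63.1 FPKM after IGF1, from 143 to 491 recovered reads per library. The groups did not overlap, and on the log2(FPKM + 1) scale control replicate 2 was at 1.6 relative to the mean of the other controls and at -0.47 relative to the IGF1 mean. The log2 fold change was 1.54 (standard error 0.45), and its adjusted p of 0.0539 from limma missed the threshold. Without control replicate 2 it was 2.08 (standard error 0.06, adjusted p = 6.0e-10 from limma), past both thresholds. In sorted cells measured in bulk, more cells of a type and more RNA per cell cannot be told apart. The other abundant chemokine gene of α-granules, Ppbp, stayed at or below 1.12 FPKM in every library, on 4 to 7 recovered reads, too few to compare the groups.

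Selp encodes P-selectin, the adhesion molecule that α-granules of platelets and storage bodies of endothelial cells bring to the surface (chr1:164115264-164150026, + strand). It had 18.1, 3.50 and 16.5 FPKM across control replicates 1 to 3, against 3.0, 3.0 and 2.82 FPKM after IGF1. The groups did not overlap, and on the log2(FPKM + 1) scale control replicate 2 was at 0.19 relative to the IGF1 mean and at -2.02 relative to the mean of the other controls. The log2 fold change was -1.54 (standard error 0.56, adjusted p = 0.0755 from limma), and without control replicate 2 it was -2.21 (standard error 0.07, adjusted p = 6.8e-10 from limma). Pf4 and Selp, both granule genes, thus stood in opposite order between the groups. Of the exon bases of Selp, 9.93% lie across from Gm16548 and 4.21% across from Gm16587, both on the opposite strand. The counting of strand was not given in the sources used here.

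Vwf encodes von Willebrand factor, the multimer that bridges collagen and the platelet receptor and has been used as a mark of platelet-biased HSCs (chr6:125546774-125686679, + strand). It had 0.550, 0.764 and 0.519 FPKM in the control libraries, against 0.756, 0.652 and 0.615 FPKM after IGF1, from 67 to 85 recovered reads. The groups overlapped (exact permutation p = 0.6, 2-sided). All values were below 1 FPKM, so it was not among the genes fitted.

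Itga2b encodes CD41, the αIIb chain, which pairs with the β3 chain of Itgb3 to form the fibrinogen receptor of platelets. Itga2b (chr11:102453297-102470122, - strand) had 32.2, 16.8 and 32.3 FPKM across control replicates 1 to 3, against 19.3, 18.0 and 17.9 FPKM after IGF1. Control replicates 1 and 3 were above every IGF1 library and control replicate 2 below them, so the groups overlapped. The log2 fold change was -0.48 (standard error 0.26, adjusted p = 0.171 from limma). Without control replicate 2 it was -0.78 (standard error 0.05, adjusted p = 1.4e-07 from limma), which passes the p but not the 2-fold threshold.

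Itgb3 (chr11:104608000-104670476, + strand) had 1.30, 1.79 and 1.6 FPKM in the control libraries, against 1.57, 1.67 and 1.48 FPKM after IGF1, with overlapping groups. Its log2 fold change was 0.01 (standard error 0.11, adjusted p = 0.934 from limma), and 0.07 (standard error 0.09, adjusted p = 0.436 from limma) without control replicate 2. Its sign turned under 3 alternatives. The Itga2b to Itgb3 ratio of FPKM was 24.8, 9.40 and 20.2 in the controls and 12.3, 10.7 and 12.1 in the IGF1 libraries, lowest in control replicate 2.

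The GPIb-IX-V complex, the platelet receptor for von Willebrand factor, is built from the products of Gp1ba, Gp1bb, Gp9 and Gp5. Gp1bb, its β chain, rose. It had 1.2, 1.87 and 0.655 FPKM across control replicates 1 to 3, against 3.79, 3.26 and 4.28 FPKM after IGF1, from 22 to 115 recovered reads. The groups did not overlap, and the log2 fold change was 1.12 (standard error 0.22, adjusted p = 0.0368 from limma). It was 1.32 (standard error 0.13, adjusted p = 5.0e-06 from limma) without control replicate 2, and the call was lost when any other library was left out (adjusted p of 0.141 to 0.164 from limma), as were those of all 10449 genes tested. The gene (chr16:18620317-18622403, - strand) shares 91.1% of its exon bases with Sept5 and 41.5% with Gm49601 on the same strand, so its reads cannot be told apart from theirs.

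Gp9, the glycoprotein IX subunit (chr6:87778072-87779768, + strand), had 2.83, 6.04 and 3.16 FPKM across control replicates 1 to 3, against 8.39, 8.06 and 6.85 FPKM after IGF1. All IGF1 values were above all control values. The log2 fold change was 0.86 (standard error 0.25, adjusted p = 0.0552 from limma), short of both thresholds, and 1.13 (standard error 0.09, adjusted p = 7.8e-07 from limma) without control replicate 2. With trends on transcript length and GC content removed it was -0.04 (adjusted p = 0.815 from limma). That fit used the annotated transcript of 881 bases, which seems shorter than the length behind the deposited values, so it does not show a length effect.

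The remaining subunits did not share the order of Gp1bb and Gp9. Gp1ba, the chain that binds von Willebrand factor, had 1.02, 1.32 and 1.30 FPKM in the control libraries, against 1.40, 0.751 and 1.43 FPKM after IGF1 (log2 fold change -0.02, adjusted p = 0.898 from limma). Gp5 had 5.56, 2.68 and 5.70 FPKM in the control libraries, against 3.63, 3.37 and 3.32 FPKM after IGF1 (log2 fold change -0.30, adjusted p = 0.348 from limma). The Gp9 to Gp5 ratio of FPKM was 0.509, 2.25 and 0.555 in the controls and 2.31, 2.39 and 2.07 in the IGF1 libraries. Control replicate 2 lay within the IGF1 range of this ratio, and the other controls lay below it.

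**Figure D2:**
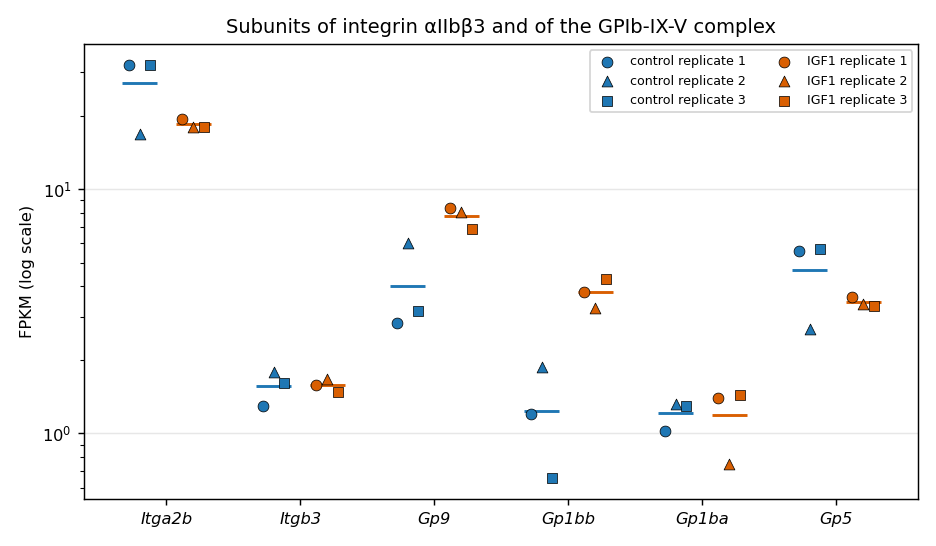
FPKM on a log scale (y axis) of the subunit genes of the fibrinogen receptor (Itga2b, Itgb3) and of the GPIb-IX-V complex (Gp9, Gp1bb, Gp1ba, Gp5) in control (blue) and IGF1 (orange) libraries, with the marker shape giving the replicate and the bar the group mean. The groups are separate for Gp9 and Gp1bb and overlap for the other 4 genes.

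F2r encodes the thrombin receptor PAR1 (chr13:95601803-95618487, - strand), which endothelial cells also express; mouse platelets themselves rely on PAR3 and PAR4, the products of F2rl2 and F2rl3. F2r had 22.5, 5.31 and 22.9 FPKM across control replicates 1 to 3, against 3.65, 4.8 and 4.73 FPKM after IGF1. The groups did not overlap, but the lowest control, replicate 2, was close to the IGF1 libraries. The log2 fold change was -1.51 (standard error 0.54, adjusted p = 0.0723 from limma), and -2.14 (standard error 0.09, adjusted p = 9.8e-09 from limma) without control replicate 2. The platelet receptor gene F2rl3 ranged over 20.5 to 21.9 FPKM in the control libraries, against 18.9 to 19.2 FPKM after IGF1, a log2 fold change of -0.14 (adjusted p = 0.224 from limma). F2rl2 had 1.71 to 2.43 FPKM in the control libraries, against 1.16 to 1.43 FPKM after IGF1 (log2 fold change -0.35, adjusted p = 0.0761 from limma).

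Vwf, Selp and F2r are also genes of endothelial cells. Of 8 endothelial markers, 8 had a row and 4 could be tested, with 0 called by limma and 0 higher and 1 lower at an unadjusted p under 0.05. Their summed level was 39.8 to 68.9 FPKM in the control libraries, against 40.3 to 40.9 FPKM after IGF1, and most of it was Eng, Emcn and Tie1, which HSCs express too. Cdh5, the cadherin that defines endothelial cells, was at 0.0772, 0 and 0.123 FPKM in the control libraries, against at 0 in all 3 IGF1 libraries.

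Cd9 encodes a tetraspanin, a small membrane protein that organises integrins and that is abundant on platelets (chr6:125460266-125494791, - strand). It had 66.2, 61.4 and 63.9 FPKM across control replicates 1 to 3, against 39.7, 46.4 and 45.7 FPKM after IGF1. The groups did not overlap, and here control replicate 2 lay with the other controls, at -0.08 relative to their mean and at 0.47 relative to the IGF1 mean on the log2(FPKM + 1) scale. The log2 fold change was -0.53 (standard error 0.10, adjusted p = 0.0369 from limma), which passes the p but not the 2-fold threshold. It was -0.56 (standard error 0.06, adjusted p = 1.4e-05 from limma) without control replicate 2, and -0.28 (adjusted p = 0.101 from limma) after scaling to the 75th percentile. Gm26728, on the opposite strand, covers 10.7% of its exon bases.

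**Figure D3:**
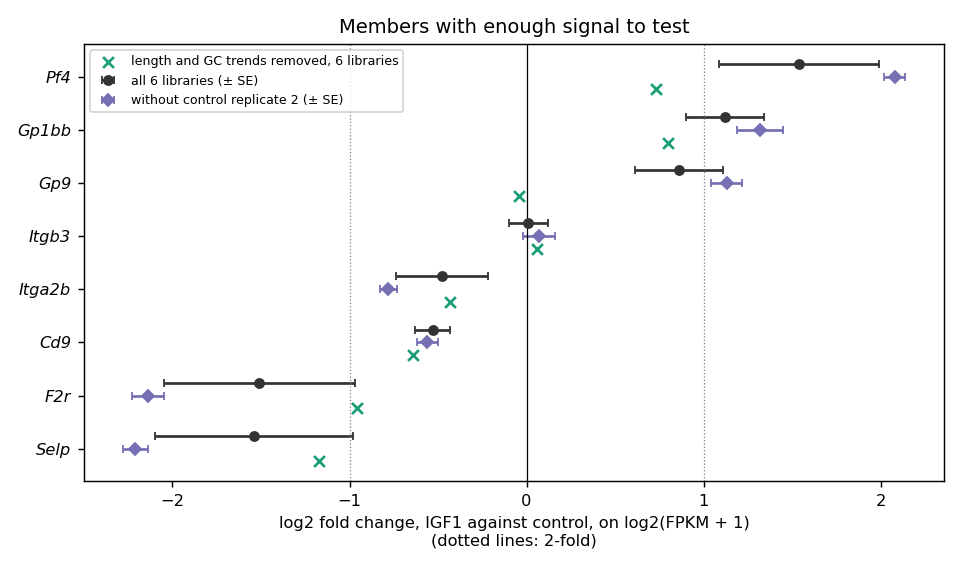
Log2 fold change, IGF1 against control, on log2(FPKM + 1) (x axis) of the 8 genes tested (y axis), with all 6 libraries (black, ± standard error), without control replicate 2 (purple, ± standard error) and with trends on transcript length and GC content removed (green cross). Leaving out control replicate 2 moves Pf4 from 1.54 to 2.08 and Selp from -1.54 to -2.21 and narrows their errors. Removing the trends moves Gp9 from 0.86 to -0.04, on an annotated length of 881 bases that seems too short for its deposited values.

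The longest annotated transcripts of Pf4 and Gp9 hold 588 and 881 bases, that of Gp1bb 2085, that of Cd9 1228, those of Itga2b, Selp and F2r 3437, 3438 and 3336 and that of Itgb3 5784 bases. For Gp9 the deposited values point to a longer gene model. In control replicate 1 it had 136 reads at 2.83 FPKM, more reads per FPKM than Cd9 with 1265 reads at 66.2 FPKM. The length class of Gp9 is therefore uncertain. Over all genes tested, the median log2 fold change was 0.97 for the 541 genes with transcripts of up to 1000 bases, 0.14 for 1786 genes of 1000 to 2000 bases, -0.36 for 4392 genes of 2000 to 4000 bases and -0.24 for 3635 longer genes. Pf4, Itga2b, Selp and F2r stood with the sign of the median of their length class, as did Gp9 by its annotated length. Gp1bb, which rose, and Cd9, lower in every IGF1 library, stood against it, and Itgb3 was at 0.01. With the trends on length and GC content removed, Pf4 was at 0.73 (adjusted p = 0.0448), Gp1bb at 0.80 (adjusted p = 0.0447), Cd9 at -0.64 (adjusted p = 0.045), F2r at -0.96 (adjusted p = 0.0989) and Selp at -1.17 (adjusted p = 0.0883), all from limma. None of the 8 genes was then called by limma in either direction, with 0 higher and 1 lower at 2-fold and an unadjusted p under 0.05, and 160 genes were called higher and 154 lower over all genes tested.

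Other genes whose profile over the 6 libraries lay nearest to that of each of these genes were found by the root mean square difference of centred log2(FPKM + 1) values. Nearest to Pf4 were Rpl24 (0.0660) and Rpl11 (0.0662), genes of the large ribosomal subunit for which reads can be split with near-identical copies. Nearest to Itga2b were Colgalt1 (0.0168) and Fermt3 (0.0253), the latter encoding the integrin activator kindlin-3. Nearest to Selp were Usp10 (0.0411) and Erlin2 (0.0482), and to Cd9 Shpk (0.0247) and Tmem230 (0.0388). Nearest to F2r were Aqp9 (0.0826) and Tstd2 (0.0840), to Gp9 Npm3 (0.0565) and Sbf1 (0.0596), to Gp1bb Samd14 (0.0992) and Them6 (0.109), and to Itgb3 Ints3 (0.0270) and Ogfod3 (0.0291).

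The wider program was followed in 77 genes of known role, which include the 9 genes. Of these, 76 had a row and 59 could be tested. There were 5 called higher and 2 lower (1.98% and 4.63% of all genes tested), and 0 in either direction with length and GC trends removed. The median log2 fold change was -0.07, but 0.15 after scaling to the 75th percentile and 0.03 after quantile normalization. limma voom on the recovered reads called 6 higher and 2 lower (3.66% and 6.51% of all genes tested). Without control replicate 2, 9 were called higher and 12 lower (12.3% and 20.6% of all genes tested). When any other library was left out limma called 0 of these, as of all 10449 genes tested. At 2-fold and an unadjusted p under 0.05 it gave 4 to 7 higher and 0 to 5 lower, with no share of all genes counted. The groups did not overlap for 18 higher and 18 lower genes (21.9% and 37.4% of all genes tested), and control replicate 2 was nearer to the IGF1 mean in 47 of the 59 (8073 of all 10449). Several genes that mature megakaryocytes and platelets express at high levels were near 0: Gp6, the collagen receptor gene, was listed at 0 in all 6 libraries, Tubb1, the platelet β-tubulin gene, had 0 to 0.561 FPKM and Myl9 0 to 0.107 FPKM. These 3 were chosen after their values were seen. Of the 76 genes with a row, 13 were under 1 FPKM in all 6 libraries, and 1 was at 0 in all. Others on the list were not low, such as Pf4 with 15.1 to 73.7 FPKM and Rgs18 with 37.4 to 109 FPKM.

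Of 10 tested signalling genes, Treml1 and Rasgrp2 rose and Rgs18 fell. Treml1, a receptor stored in α-granules, had 1.6, 3.47 and 2.38 FPKM in the control libraries, against 8.26, 8.34 and 8.81 FPKM after IGF1 (log2 fold change 1.48, standard error 0.21, adjusted p = 0.0287 from limma). Rasgrp2, the exchange factor that activates RAP1 and through it the fibrinogen receptor, had 17.4, 34 and 17.1 FPKM in the control libraries, against 46.3, 44.2 and 45.3 FPKM after IGF1 (log2 fold change 1.03, standard error 0.27, adjusted p = 0.0481 from limma). Rgs18, a brake on G protein signalling in platelets, had 109, 56.1 and 107 FPKM in the control libraries, against 40.2, 37.4 and 38.5 FPKM after IGF1 (log2 fold change -1.15, standard error 0.27, adjusted p = 0.0430 from limma). An intermediate level was seen in control replicate 2 in all 3 genes. Fermt3, the most abundant of the set, had 184, 99.9 and 186 FPKM in the control libraries, against 103 to 111 FPKM after IGF1 (log2 fold change -0.48, adjusted p = 0.161 from limma). Lat, an adaptor of the collagen receptor pathway, had 39.8, 74.1 and 38.3 FPKM in the control libraries, against 95.6 to 100 FPKM after IGF1, and its log2 fold change of 1.0 (adjusted p = 0.0482 from limma) did not pass the 2-fold threshold.

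Of the 6 tested genes of granule formation, Nbeal2, which is needed to make α-granules, rose from 3.30, 7.60 and 2.92 FPKM in the control libraries to 11.6, 11.7 and 12.6 FPKM after IGF1 (log2 fold change 1.31, standard error 0.31, adjusted p = 0.0436 from limma). Vipas39, of the VPS33B complex that sorts granule cargo, had 17.0 to 20.4 FPKM in the control libraries, against at most 13.1 FPKM after IGF1 (log2 fold change -0.50, adjusted p = 0.0412 from limma), short of the 2-fold threshold. Hps1, of the dense granule pathway, had 9.85 to 22.5 FPKM in the control libraries, against 16.6 to 17.6 FPKM after IGF1 (log2 fold change 0.02, adjusted p = 0.967 from limma).

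Of 10 transcription factor genes tested, Zfpm1, which encodes the GATA1 partner FOG1, rose from 2.15, 4.98 and 1.97 FPKM in the control libraries to 7.95, 7.88 and 8.08 FPKM after IGF1 (log2 fold change 1.23, standard error 0.28, adjusted p = 0.0429 from limma). No other factor gene was called. Runx1 had 18.3 to 20.8 FPKM in the control libraries, against 27.8 to 28.8 FPKM after IGF1. Its log2 fold change of 0.53 (adjusted p = 0.0355 from limma) was short of 2-fold. Fli1 had 20.1 to 42.5 FPKM, against 14.8 to 17.6 FPKM (log2 fold change -0.97, adjusted p = 0.0582 from limma). For Gata1 the values were 7.92 to 8.56 FPKM, against 9.08 to 10.1 FPKM (log2 fold change 0.21, adjusted p = 0.151 from limma). Nfe2, which encodes the NF-E2 subunit needed for platelet release, was the most abundant, with 133 to 169 FPKM in the control libraries, against 121 to 126 FPKM after IGF1 (log2 fold change -0.33, adjusted p = 0.0879 from limma). Etv6, an ETS repressor gene, had 34.1 to 49.9 FPKM in the control libraries, against 38.2 to 39.0 FPKM after IGF1 (log2 fold change -0.18, adjusted p = 0.390 from limma). The median over the 10 genes was 0.16.

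Of the 2 tested enzymes of eicosanoid synthesis, Ptgs1, the cyclooxygenase of platelets, fell from 5.94, 3.43 and 5.90 FPKM in the control libraries to 2.04, 1.93 and 1.79 FPKM after IGF1 (log2 fold change -1.03, standard error 0.20, adjusted p = 0.0367 from limma). Tbxas1, the thromboxane synthase gene next in that pathway, had 27.1, 14.3 and 27.9 FPKM in the control libraries, against 10.9 to 11.5 FPKM after IGF1 (log2 fold change -0.92, adjusted p = 0.0526 from limma). After scaling to the 75th percentile 0 of the 59 genes were called lower, so neither the call of Ptgs1 nor that of Rgs18 held there.

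In the remaining roles no gene beyond Gp1bb was called by limma. Among 9 tested adhesion receptor genes, the groups did not overlap for 2 higher and 1 lower, against 21.9% and 37.4% of all genes tested. The most abundant, Itgb1, the β1 integrin chain, had 75.7 and 73.8 FPKM in control replicates 1 and 3, against 18.0 to 20.4 FPKM in control replicate 2 and after IGF1 (log2 fold change -1.31, adjusted p = 0.0859 from limma). It passed both thresholds when control replicate 2 was left out (-1.92). Pecam1 had 17.5 to 34.4 FPKM in the control libraries, against 20.8 to 21.8 FPKM after IGF1 (log2 fold change -0.32, adjusted p = 0.314 from limma). Among 6 tested agonist receptor genes, the groups did not overlap for 0 higher and 4 lower, to be set against the same shares.

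Among 7 tested granule content genes, the groups did not overlap for 3 higher and 2 lower, against 21.9% and 37.4% of all genes tested. Srgn, the proteoglycan core of granules in many blood cells, was the most abundant, with 248 to 290 FPKM in the control libraries, against 247 to 261 FPKM after IGF1 (log2 fold change -0.04, adjusted p = 0.772 from limma). Of 4 tested tetraspanin genes, 0 were higher and 1 lower by the same measure, the latter being Cd9. Cd63, of granule membranes, had 177 to 227 FPKM in the control libraries, against 188 to 190 FPKM after IGF1 (log2 fold change -0.07, adjusted p = 0.641 from limma). Of 5 tested cytoskeleton genes, 2 were higher and 1 lower by the same measure. Bin2 had 131 to 197 FPKM in the control libraries, against 121 to 122 FPKM after IGF1 (log2 fold change -0.49, adjusted p = 0.0769 from limma), and Flna, the filamin that anchors GPIb, had 40.0 to 47.8 and 40.6 to 42.5 FPKM (log2 fold change -0.11, adjusted p = 0.414 from limma).

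**Figure D4:**
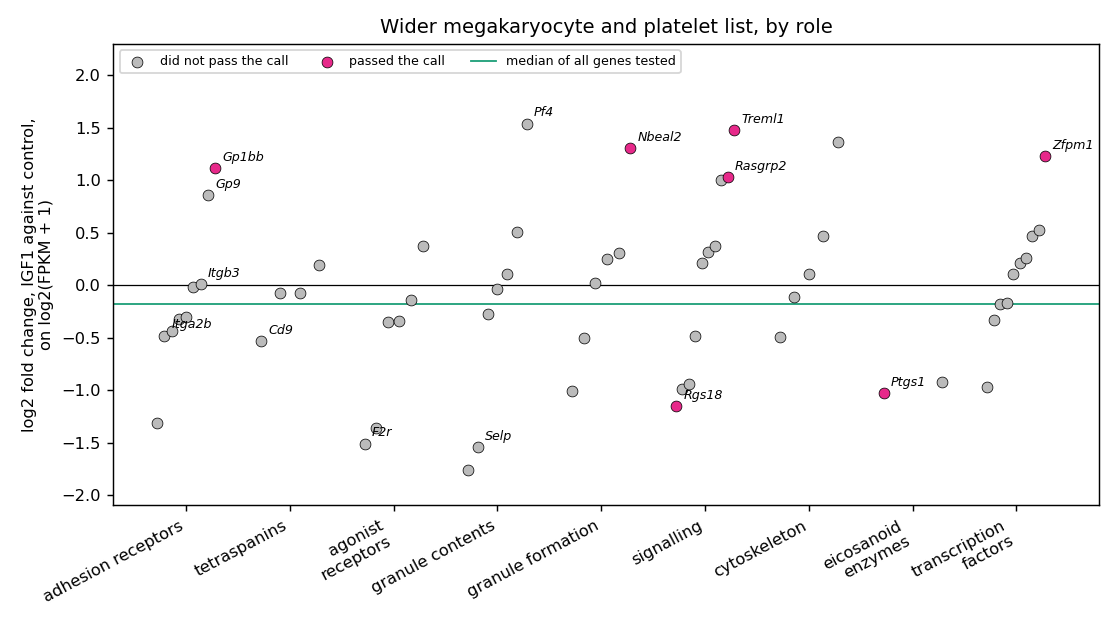
Log2 fold change, IGF1 against control, on log2(FPKM + 1) (y axis) of the 59 tested genes of the wider megakaryocyte and platelet list by role (x axis), with called genes in pink and the median of all genes tested, -0.18, as a green line. The 5 called rises (Gp1bb, Nbeal2, Treml1, Rasgrp2, Zfpm1) fall in 4 roles and the 2 called falls (Rgs18, Ptgs1) in 2.

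Markers of other blood cells differed between the libraries as well. The summed level of 8 B cell markers was 102, 372 and 100 FPKM across control replicates 1 to 3, against 379 to 398 FPKM after IGF1. That of 7 T and NK cell markers was 372, 780 and 360 FPKM against 770 to 790 FPKM, nearly all of it Nkg7. That of 10 neutrophil and monocyte markers was 2718 to 3196 FPKM against 3118 to 3136 FPKM, with Mpo as its largest term, and it hid opposite differences. The 4 genes called lower were Ngp, Camp, S100a8 and S100a9, whereas Elane had 92.8, 576 and 92.4 FPKM against 692 to 709 FPKM and Ly6c2 26.7, 379 and 29.6 FPKM against 340 to 347 FPKM, neither called. That of 10 erythroid markers was 75.5 to 128 FPKM against 74.8 to 80.8 FPKM. That of 5 mast cell and basophil markers was 70.5 to 91.1 FPKM against 89.6 to 92.9 FPKM. The 4 measured lineage gate genes summed to 37.2 to 72.9 FPKM against at most 31.6 FPKM, nearly all of it Ptprc, the CD45 gene that HSCs express as well, and 10 stem cell and sort genes to 1235 to 1403 FPKM against 933 to 959 FPKM. No marker on these lists was at 0 in all 6 libraries. The part of these differences in those of the megakaryocyte and platelet genes was not tested.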

How the data were processed

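RNA was measured in 6 libraries of sorted HSCs, 3 per group, with groups from the treatment label. The libraries were made with a stranded TruSeq mRNA kit after RNeasy Micro extraction. For every gene symbol the authors deposited a value in each library, read here as FPKM, since within a gene the values were whole multiples of a step that shrank with gene length. The methods of the study name fastp, RSEM and DESeq2, whereas the submitters' processing notes name fastp, HISAT2 and StringTie with the builds GRCm38 and mm10, and the annotation was not given in the sources used here. Steps gave whole reads (tolerance 0.02 reads) for 15635 of 15640 rows above 0 and for 0 of 500 jittered rows. The scale of the recovered reads is approximate, and 4 rows share a symbol.

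The test was limma 3.58.1 (R 4.3.3; linear model per gene, moderated with a variance trend) on log2(FPKM + 1), for genes that reached 1 FPKM in 3 or more libraries, after a check on simulated data. Single genes were also compared by exact permutation tests, 2-sided. Named are the 9 members, the 2 nearest profiles and, of each role of the wider list, the called and 2 most abundant genes. Of the 3 most abundant markers of each list, only some are named. Gp1ba, Gp5, F2rl2, Ppbp, Lat, Gp6, Tubb1, Myl9, Runx1, Fli1, Gata1, Kit, Cdh5, Ly6c2, Ngp, Camp, S100a8 and S100a9 were named after their values were seen. A gene that this rule names is not reported here. The members and lists were chosen with earlier results of these data known. Gene positions and overlaps came from GENCODE M21, promoters from RefSeq (GRCm38.p6). Transcript length and GC content were found for 99.1% of the genes tested. Correlations of same-numbered deviations were -0.06, -0.05 and 0.01. The control deviations mostly follow control replicate 2, so this check could not settle whether replicate numbers pair the samples. Alternatives covered the pseudocount, filter, scaling, variance trend, library weights, replicate block, each library left out, limma voom on recovered reads, length and GC trends, and thresholds.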

Additional observations from a re-analysis of the deposited data

How the results depend on the processing

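Leaving out each library in turn gave 0 to 3 members called higher (1 with all libraries), 0 to 2 called lower (0), 0 to 9 genes of the wider list called higher (5) and 0 to 12 called lower (2), the upper ends without control replicate 2 and 0 without any other library (0 of all 10449 genes as well), where limma at 2-fold and an unadjusted p under 0.05 gave 1 to 2 members higher and 0 lower. Library weights, which gave control replicate 2 a weight of 0.0137, gave 3 and 2 members and 9 and 12 genes of the wider list, higher and lower. With a replicate block 0 members and 0 genes of the wider list were called higher. It called 0 genes of the wider list lower, and 0 of all genes. Whether the replicate numbers pair the samples is not known. At 2-fold and an unadjusted p under 0.05 the block gave 2 and 2 members and 7 and 8 wider-list genes, higher and lower. A pseudocount of 5 FPKM gave 0 members higher and 0 and 1 genes of the wider list, higher and lower. A minimum of 5 FPKM, under which Gp1bb, Selp and Itgb3 were not tested, gave 0 members higher and 1 gene of the wider list lower, and no filter gave 2 and 1 genes of the wider list. Quantile normalization gave 2 members higher and 1 gene of the wider list lower, scaling to the 75th percentile 0 genes of the wider list lower, and voom 2 members higher. With length and GC trends removed, 0 members were higher and 0 genes of the wider list were called in either direction; this alternative tested 10354 genes. Adjusted p alone gave 1 member lower and 8 and 4 genes of the wider list. The sign turned for Gp9 with the trends removed (-0.04), fitted at an annotated length of 881 bases that seems too short for its deposited values. It turned for Itgb3 with quantile normalization (-0.02), without control replicate 1 (-0.07) and without IGF1 replicate 2 (-0.02). The range of Itgb3 over left-out libraries was -0.07 to 0.07. Apart from the construction of each alternative, the cause was not tested. Over all genes tested, 207 were called higher and 484 lower, against 278 and 701 with a pseudocount of 0.1 FPKM, 66 and 157 with 5 FPKM, 109 and 265 with no filter, 300 and 259 with 75th percentile scaling, 304 and 319 with quantile normalization, 382 and 680 with voom, 160 and 154 with the trends removed, and 1281 and 2157 without control replicate 2. Members of low depth, Gp1bb with 22 to 115 reads and Vwf with 67 to 85 reads, carry more counting error than Cd9 with 587 to 1265 reads.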
